A study of Mus musculus with 24 samples.

Results

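Epiblast stem cells (EpiSCs) are mouse pluripotent lines taken from the epiblast of the implanted embryo and grown on in culture. In the data described here, 5 EpiSC lines were set against epiblast tissue dissected by hand from embryos of embryonic day 5.5 (E5.5). The original protocol gave the lines Wt1 and 129C1. The other 3, named 129Ba1, 129Ba2 and BNa17, were established in the presence of a Wnt inhibitor. 129C1 arrays treated with the Wnt inhibitor IWP2 were left out. The labels give neither the strain, sex and passage of the lines nor the number of embryos pooled for a tissue sample, and each line counted once in the tests. All lines were kept on feeder layers and separated from the feeders before RNA was extracted. The comparison used 12 of the 24 arrays of the series, 10 from EpiSC lines (2 per line) and 2 from E5.5 epiblast, while 2 arrays of E6.5 epiblast and 2 of E7.5 embryonic ectoderm served for orientation.

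The epiblast is the cell layer from which the whole embryo body arises. After implantation it leaves the naive pluripotency of the blastocyst for a primed state, in which Nodal and FGF signals hold the cells ready for gastrulation. Its genome is methylated anew in the same days, which is known to close off many genes used later only in germ cells. EpiSCs depend on Activin or Nodal and on FGF and are the standard model of the primed state in culture.

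Each level below is the log2 of a gene's array signal minus the log2 of the 75th percentile of all probes on that array, so 0 is a signal equal to that percentile and 1 unit is a 2-fold step. A level belongs to 1 probe and is compared between samples only. The test was limma's moderated fit of the 5 line means against the 2 E5.5 arrays, with the E6.5 and E7.5 arrays in the same fit as further groups. To be called, a gene had to differ by 2-fold or more with an adjusted p (Benjamini-Hochberg, limma, over 14746 genes tested) below 0.05, and every adjusted p here is of that kind unless said otherwise. Differences are EpiSC lines minus E5.5 epiblast, ± standard error, with n = 5 line means against 2 arrays. Where no array of a side rose well above background, the fold is written as a bound ("at least"), against the lowest signal called well above background on those arrays. Where only some arrays of a side did so, the log2 difference is given as it stands, and its size is less certain. Of the genes tested, 3549 were called (24.1%), 2164 higher (14.7%) and 1385 lower (9.39%) in EpiSC lines, and the median difference over all of them was -0.04. Counts for gene lists are to be read against these shares. A gene well above background on no array of 1 side was tested only through other groups that held it. The filter thus largely sets the direction of such a gene.

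The arrays limit what these numbers can carry. Between 36.7% (BNa17 replicate 1, the dimmest array) and 50.5% of probes were well above background on EpiSC arrays, and 47.9% and 46.2% on the E5.5 arrays. Replicate arrays of a line correlated at r = 0.967 (BNa17) to 0.992, and the E5.5 replicates at 0.984. Lines and tissue lay on different slides, so slide and kind of sample cannot be told apart, and the labels do not say whether replicates came from separate cultures or dissections. The 2 E5.5 replicates differed in visceral endoderm transcripts, whose summed level was 47.0 in replicate 1 and 236 in replicate 2. Markers of fibroblasts, the cell type of most feeder layers, were high in every line, with a summed level of 196 to 604 on EpiSC arrays against 12.3 and 11.6 on E5.5 arrays. Both facts are given again beside some of the genes, and they may touch others beside which they are not repeated. The part of feeder or visceral endoderm RNA was not tested for any gene. In bulk RNA, fewer cells of a type and less RNA per cell cannot be told apart.

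The pluripotency factors that define both samples were present in both. Pou5f1 (Oct4), the factor without which pluripotent cells cannot be kept, had levels of 5.36 to 7.09 (median 5.86) on EpiSC arrays against 5.18 and 5.67 in E5.5 epiblast, and did not pass the test (0.52 ± 0.27, adjusted p = 0.161). Sox2, its partner on DNA, stood at 1.93 to 2.83 (median 2.43) against 2.43 and 2.24 and did not pass either (0.05 ± 0.23, adjusted p = 0.882). The ranges of lines and tissue overlapped for both genes. The plot of key genes by array shows this beside the much larger differences of the genes that follow.

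**Figure D1:**
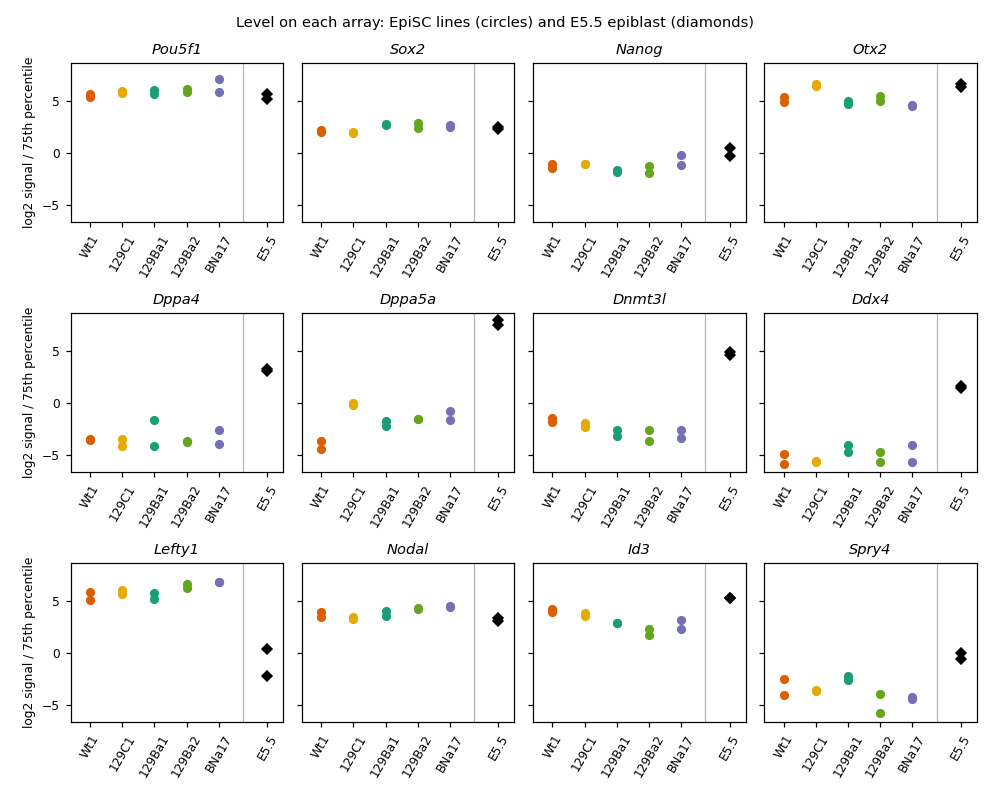
Level of 12 genes on each array (log2 signal over the array's 75th percentile), with the 10 EpiSC arrays as circles by line and the 2 E5.5 arrays as diamonds. Pou5f1 and Sox2 overlap, Dppa4, Dppa5a, Dnmt3l and Ddx4 lie far lower on every EpiSC array, and Lefty1 lies higher on every EpiSC array.

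Germline genes were lower in EpiSC lines. Of 25 tested genes of germ cells and meiosis, 20 were called lower and 0 higher, and their median difference was -3.59. Ddx4, the germ cell RNA helicase Vasa, had levels of -5.92 to -4.04 (median -5.26) on EpiSC arrays against 1.66 and 1.45 in E5.5 epiblast. No EpiSC array was well above background for it, and it was at least 33.9-fold lower (adjusted p = 3.43e-06). Mael, which helps to silence transposons in the male germline, stood at -6.41 to -4.48 (median -5.83) against 1.07 and 0.86 and was at least 22.6-fold lower (adjusted p = 8.79e-07). Sycp3 and Hormad1 encode proteins of the meiotic chromosome axis. Sycp3 had levels of -6.14 to -4.47 (median -5.19) against 1.11 and 0.99 and was at least 23.9-fold lower. Hormad1 had levels of -6.14 to -4.27 (median -5.71) against -0.02 and -0.20 and was at least 10.7-fold lower (adjusted p = 8.79e-07 for Sycp3 and 6.55e-05 for Hormad1). For all 4 genes every EpiSC array lay below both E5.5 arrays by several log2 units. With no EpiSC array well above background, these 4 genes were tested only through embryo groups that held them. Their direction was thus largely set by that filter. With only genes above background on all 12 arrays, 3 members of the list were called lower and 0 higher.

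Other members of the list, such as Tex19.1 and Rhox5, kept a measurable level in the lines. Tex19.1, expressed in germ cells and pluripotent cells, was well above background on all 10 EpiSC arrays at -1.90 to -0.40 (median -1.29) against 3.59 and 3.64 in E5.5 epiblast (-4.88 ± 0.27, adjusted p = 4.31e-06). Rhox5, an X-linked homeobox gene of the reproductive tissues, stood at -0.57 to 0.43 (median 0.01) against 3.58 and 5.29 (-4.53 ± 0.47, adjusted p = 0.000137). Tuba3a and Tuba3b, alpha tubulins of the testis, differed by -7.67 ± 0.25 and -6.13 ± 0.23 (adjusted p = 3.96e-07 and 6.49e-07). On the EpiSC arrays Tuba3a was well above background on 5 of 10, and Tuba3b stood at -4.48 to -3.05, so the sizes are uncertain. The sequences of Tuba3a and Tuba3b are near identical, so the signal cannot be assigned to 1 of the pair with certainty. The 5 tested members that were not called included Kit, the stem cell factor receptor, which is used by many cell types (0.12 ± 0.48, adjusted p = 0.855).

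In the tissue, several of these genes were lower at the later stages. Ddx4 stood at 0.13 and -0.01 in E6.5 epiblast and -2.60 and -1.67 in E7.5 ectoderm. Sycp3 stood at 0.92 and 0.99 in E6.5 epiblast and -1.28 and -0.89 in E7.5 ectoderm. Hormad1 was already at -4.47 and -3.53 in E6.5 epiblast. Rhox5, at 3.70 and 4.96 in E6.5 epiblast, overlapped with E5.5. On the map of germline genes by array the EpiSC columns are darker than the E5.5 columns for every gene shown.

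**Figure D2:**
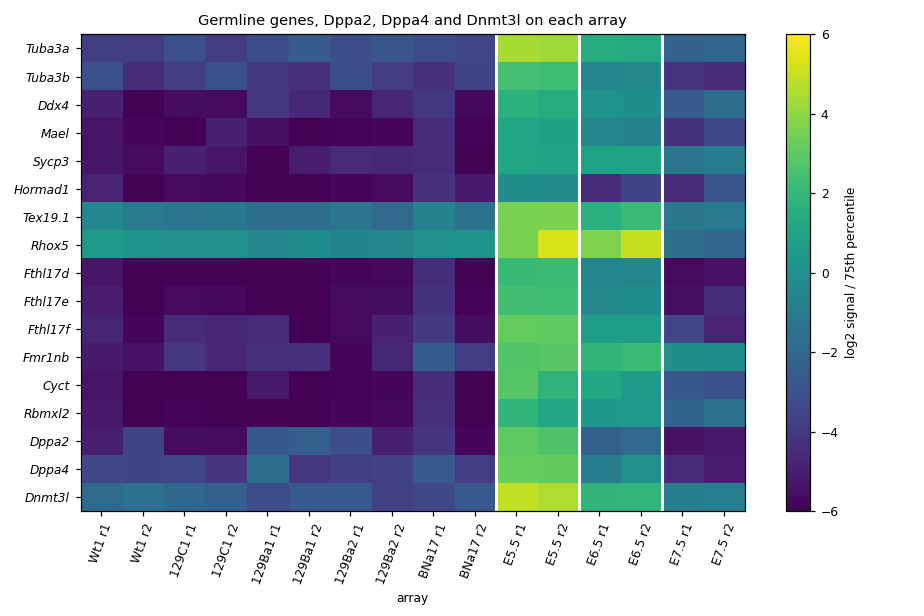
Levels of 14 germline or testis genes with Dppa2, Dppa4 and Dnmt3l (rows) on the 10 EpiSC arrays, then E5.5, E6.5 and E7.5 arrays (columns, 2 each), coloured by log2 signal over the array's 75th percentile. The EpiSC columns are dark for Ddx4 and Mael, which were at 1.66 and 1.45 and at 1.07 and 0.86 in E5.5 epiblast.

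Genes from outside the list with large falls included several that are known from testis. Among genes well above background on both E5.5 arrays and on no EpiSC array, the largest bounds were those of Fthl17f (at least 101-fold), Fmr1nb (80.1-fold), Fthl17e (57.9-fold), Cyct (57.7-fold) and Fthl17d (52.9-fold). The Fthl17 genes are X-linked ferritin-like genes with close copies, so their probes may share signal. Cyct encodes the cytochrome c of the testis, at -6.31 to -4.46 (median -5.92) on EpiSC arrays against 2.83 and 1.81 in E5.5 epiblast. Rbmxl2, a testis RNA-binding protein gene, was at least 32.7-fold lower and Pnma5 at least 46.9-fold lower. Adjusted p for these 7 genes ran from 3.72e-07 (Fthl17d) to 1.18e-05 (Fmr1nb). Among genes measured on all 12 arrays, the largest fall was that of Rps4l, a copy of the ribosomal protein gene Rps4x. It stood at -1.71 to 1.51 (median -0.02) against 7.31 and 7.02 (-7.29 ± 0.59, adjusted p = 3.7e-05).

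Sequence upstream of germline genes called lower is shown because many of them share short motifs known from work on germline silencing. RefSeq promoter windows (GRCm38.p6, 250 bases before to 50 after the start) were at hand for 23 of the 25 tested list members, all but Dppa3 and Piwil2. Both strands were searched for CACGTG, which is its own reverse complement and is the E-box bound by Max and its partner Mga, and for TCCCGC (on the other strand GCGGGA), the core bound by E2f factors. Of 18 windows of genes called lower, 9 held CACGTG (50%), 10 held TCCCGC (55.6%) and 6 held both (33.3%). Over all 27025 genes with a window the shares were 8.09%, 22% and 2.32%. Of 5 windows of tested members that were not called, 1 held CACGTG, 1 held TCCCGC and 0 held both. Genes called lower whose window holds both motifs from 150 bases before to 30 after the start are printed below, on the strand of the gene with both motifs in capitals. The windows lie at chr13:112652281-112652460 (Ddx4, minus strand), chr3:102936071-102936250 (Sycp1, minus strand), chr10:88459437-88459616 (Sycp3, plus strand), chr3:40708721-40708900 (Slc25a31, plus strand) and chr3:95559527-95559706 (Hormad1, plus strand).
Ddx4: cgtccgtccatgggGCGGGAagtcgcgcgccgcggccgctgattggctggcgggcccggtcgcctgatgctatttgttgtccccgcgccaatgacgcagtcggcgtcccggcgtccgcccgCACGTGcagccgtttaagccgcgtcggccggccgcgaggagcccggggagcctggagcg
Sycp1: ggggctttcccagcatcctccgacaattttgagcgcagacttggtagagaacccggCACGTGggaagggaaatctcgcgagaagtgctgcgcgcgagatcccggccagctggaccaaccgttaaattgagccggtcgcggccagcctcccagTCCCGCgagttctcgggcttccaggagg
Sycp3: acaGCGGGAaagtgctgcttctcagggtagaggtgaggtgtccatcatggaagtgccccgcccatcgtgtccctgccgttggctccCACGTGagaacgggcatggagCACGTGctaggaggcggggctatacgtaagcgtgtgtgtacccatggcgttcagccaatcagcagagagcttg
Slc25a31: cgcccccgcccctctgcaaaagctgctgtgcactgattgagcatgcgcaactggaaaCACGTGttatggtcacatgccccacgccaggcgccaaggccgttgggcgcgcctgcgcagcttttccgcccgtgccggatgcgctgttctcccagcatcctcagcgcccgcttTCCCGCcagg
Hormad1: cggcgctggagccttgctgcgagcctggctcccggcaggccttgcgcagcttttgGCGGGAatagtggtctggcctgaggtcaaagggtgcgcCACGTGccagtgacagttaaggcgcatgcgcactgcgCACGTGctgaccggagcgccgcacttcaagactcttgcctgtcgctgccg
In these 5 windows the motifs share no base. Sycp3 and Hormad1 hold CACGTG at 2 places and the other windows at 1. Sycp1, of the synaptonemal complex, and Slc25a31, the germ cell ADP/ATP carrier, are named for their windows, after their values were seen. Sycp1 stood at -5.99 to -4.03 (median -5.60) on EpiSC arrays against -2.89 and -2.53 in E5.5 epiblast (at least 1.77-fold lower, adjusted p = 0.000584). Slc25a31 stood at -5.97 to -4.15 (median -5.66) against -1.13 and -1.54 (at least 4.57-fold lower, adjusted p = 1.61e-05). The matches are a description of the letters and show neither binding nor a cause.

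Among enzymes and cofactors of DNA methylation, 4 of 13 tested were called lower and 2 higher. Dnmt3l, the catalytically inactive partner of the enzymes that set new methylation, had the largest difference. It stood at -3.63 to -1.49 (median -2.60) on EpiSC arrays against 4.89 and 4.55 in E5.5 epiblast (-7.29 ± 0.37, adjusted p = 2.77e-06), with levels of 1.85 and 1.90 at E6.5 and -0.95 and -0.85 at E7.5. Dnmt3b, such an enzyme, was at 6.54 to 8.49 (median 8.05) against a mean of 9.97 (-2.09 ± 0.39, adjusted p = 0.00305). No EpiSC array reached the E5.5 level of either gene. Tet1, which oxidises methylcytosine, was lower (-1.39 ± 0.31, adjusted p = 0.00732), while its relative Tet2 was higher (1.5 ± 0.30, adjusted p = 0.00409). Apobec1, a cytidine deaminase of RNA, was the other gene called higher (3.87 ± 0.41, adjusted p = 0.000161). The Tet1 call was lost without E5.5 replicate 1 (adjusted p = 0.0696).

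Of 14 core pluripotency genes tested, 4 were called lower and 0 higher, with a median of -0.66. Dppa2 and Dppa4, chromatin proteins that work as a pair and bind many developmental promoters, had the largest falls. Dppa2 stood at -5.79 to -2.38 (median -4.54) against 3.01 and 2.64 in E5.5 epiblast (-7.12 ± 0.65, adjusted p = 7.12e-05). Dppa4 stood at -4.16 to -1.65 (median -3.63) against 3.23 and 3.10 (-6.61 ± 0.32, adjusted p = 2.09e-06). Its 2 other probes gave -4.61 and -8.65. The representative probe of Dppa4 was well above background on 1 of 10 EpiSC arrays and that of Dppa2 on 4, so the sizes of these falls are uncertain. In the tissue both genes were lower at the later stages too, with Dppa4 at -0.91 and 0.06 at E6.5 and -4.47 and -5.02 at E7.5. Sall4, a zinc finger factor of the Oct4 network, was called at -1.45 ± 0.22 (adjusted p = 0.000982), and its other probes gave differences of -0.88 and -0.98. Nanog, which stabilises pluripotency, was at -1.90 to -0.26 (median -1.24) against -0.27 and 0.41 (-1.37 ± 0.30, adjusted p = 0.00638). The highest EpiSC array lay just above the lower E5.5 array for Nanog, and its call was lost without E5.5 replicate 2 (adjusted p = 0.0813).

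Genes of naive pluripotency changed in both directions, with 8 of 21 tested called lower and 2 higher (median -1.17). Dppa5a, an RNA-binding protein of early pluripotent cells, had the largest fall of any list member. It stood at -4.48 to 0.02 (median -1.64) on EpiSC arrays against 7.5 and 7.91 in E5.5 epiblast (-9.50 ± 0.82, adjusted p = 5.49e-05), with 4.93 and 4.49 at E6.5 and 0.48 and 1.15 at E7.5. Tdh, the threonine dehydrogenase on which mouse embryonic stem cells rely, was at -3.35 to -0.68 (median -2.13) against 3.70 and 3.79 (-5.92 ± 0.58, adjusted p = 0.000102). Its tissue levels were 3.92 and 3.92 at E6.5 and 4.07 and 4.58 at E7.5. Zfp42 (Rex1), a common marker of naive cells, varied among the lines. Its line means were -5.70 in Wt1, -4.16 in 129C1, -5.44 in 129Ba1, -1.60 in 129Ba2 and -3.55 in BNa17, against 0.68 and 0.08 on the E5.5 arrays (-4.48 ± 0.93, adjusted p = 0.00507). Dppa3 (Stella), which protects maternal methylation marks, was called at -4.32 ± 0.93 (adjusted p = 0.00594). The Dppa3 call was lost without E5.5 replicate 2 (adjusted p = 0.0647), and the count of genes called lower was then 5.

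The naive factors Klf4 and Esrrb did not pass, with differences of 0.83 ± 0.60 and -1.07 ± 0.61 (adjusted p = 0.296 and 0.188). Klf4 levels were -1.30 to 1.36 (median -0.05) in the lines against -1.71 and 0.01 in epiblast, and the ranges overlapped. The 2 list members called higher are not restricted to naive cells. Spp1 (osteopontin), a secreted phosphoprotein also made by fibroblasts and bone cells, was at 3.43 to 6.57 (median 4.55) against -1.96 and -2.27 (6.82 ± 0.57, adjusted p = 4.53e-05). Jam2, a junction molecule, was at least 10.5-fold higher on the probe that represents it (adjusted p = 0.000273), but another probe gave 0.43.

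Of 23 primed epiblast genes tested, 10 were called lower and 2 higher (median -1.14). The differences of all tested members ran from -2.09 to 2.09. Pou3f1 (Oct6), a POU factor that rises after implantation, was at 3.65 to 5.75 (median 4.80) against 6.74 and 6.54 (-1.98 ± 0.47, adjusted p = 0.00974). Otx2, which directs the step to the primed state and later the head, had a median of 4.94 on EpiSC arrays against 6.56 and 6.30 (-1.20 ± 0.43, adjusted p = 0.0495). 129C1, at 6.49, lay at the E5.5 level of Otx2, and the other lines lay below it. The Otx2 call is marginal and was lost when either E5.5 array (adjusted p = 0.223 without replicate 1 and 0.139 without replicate 2) or any line but 129C1 was left out (0.071 to 0.0819), and without most single EpiSC arrays. Fgf5, the classical marker of the implanted epiblast, was at 2.65 to 5.06 (median 3.49) against 4.85 and 4.58 and did not pass (-1.08 ± 0.49, adjusted p = 0.109). Cdh2 (N-cadherin) and Nes (nestin) were the 2 called higher. Nes was nearly constant over the lines, at 3.75 to 4.08 (median 3.87) against 2.03 and 1.55 (2.09 ± 0.16, adjusted p = 2.56e-05). Cdh2 differed by 1.92 ± 0.40 (adjusted p = 0.00492). Without E5.5 replicate 1 the list had 4 called lower and 1 higher, and without replicate 2 it had 4 called lower. The calls of Pou3f1 (adjusted p = 0.0733 and 0.0541 without each E5.5 replicate) and Cdh2 (0.0551 without replicate 1) were among those lost.

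**Figure D3:**
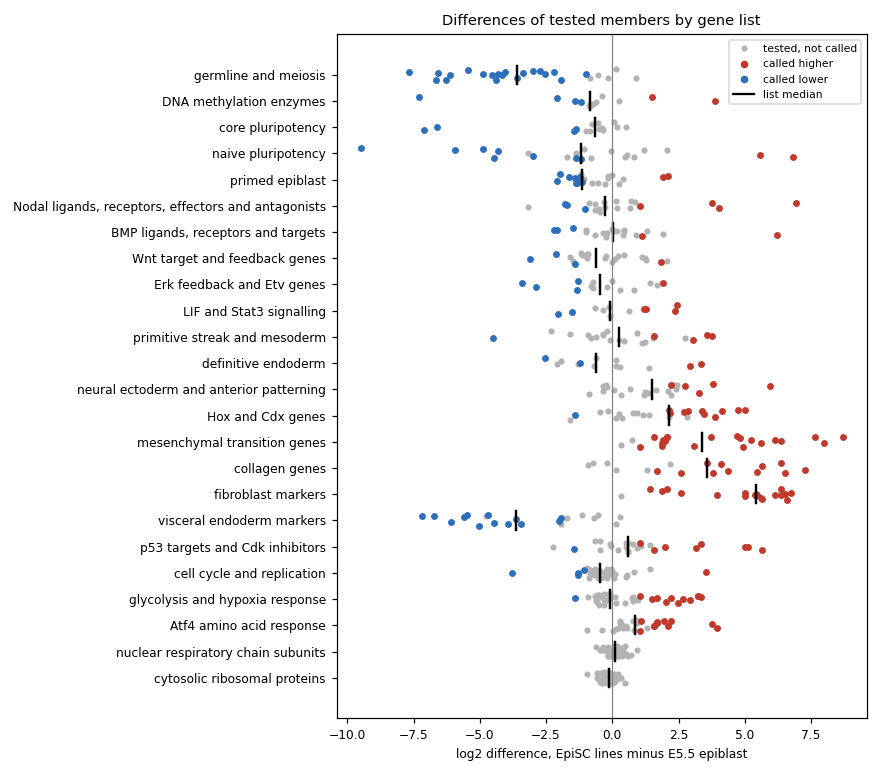
Difference between EpiSC lines and E5.5 epiblast (log2, horizontal axis) for every tested member of 24 gene lists, with members called higher in red, called lower in blue, others in grey and the list median as a black bar. Germline and visceral endoderm lists lie to the left (medians -3.59 and -3.65), mesenchymal, collagen and fibroblast lists to the right (3.41, 3.59 and 5.42), and respiratory chain and ribosomal protein lists at 0.10 and -0.11.

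Signalling genes were set out by pathway. Over all genes tested, 14.7% were called higher and 9.39% lower, and several counts below lie near those shares. In the Nodal pathway 4 of 20 tested genes were called higher and 3 lower. Lefty1, a secreted antagonist that Nodal signalling induces, was at 5.06 to 6.84 (median 5.93) on EpiSC arrays against -2.19 and 0.35 in E5.5 epiblast (6.92 ± 0.67, adjusted p = 9.9e-05). Lefty2, the second antagonist, differed by 3.75 ± 0.84 (adjusted p = 0.00728, lost at 0.0565 without E5.5 replicate 2). All 10 EpiSC arrays lay above both tissue arrays for Lefty1 and Lefty2. Lefty1 is also made by visceral endoderm, and its E5.5 values differ between the replicates in the same direction as the visceral endoderm sum. Nodal itself was at 3.26 to 4.52 (median 3.96) against 3.05 and 3.38 and did not pass (0.70 ± 0.37, adjusted p = 0.162). Gdf1, a ligand that pairs with Nodal, was lower on its representative probe (-1.77 ± 0.26, adjusted p = 0.000843), and so was the pro-protein convertase Pcsk6, which cuts the Nodal precursor (-1.71 ± 0.36, adjusted p = 0.00578). Without E5.5 replicate 2 the pathway had 2 genes called higher, and without replicate 1 it had 1 called lower. The mean of all Gdf1 probes was not called (adjusted p = 0.108), and neither was Pcsk6 without E5.5 replicate 1 (adjusted p = 0.0538).

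Of 20 tested BMP pathway genes, 3 were called lower and 2 higher. Id3, an inhibitor of differentiation factors that BMP induces, was at 1.70 to 4.23 (median 3.01) on EpiSC arrays against 5.22 and 5.27 in epiblast (-2.19 ± 0.46, adjusted p = 0.00565). Msx1, another BMP target, was at -2.77 to -0.68 (median -1.65) against -0.05 and 0.42 (-2.07 ± 0.33, adjusted p = 0.00129). Every EpiSC array was below both E5.5 arrays for Id3 and Msx1. Grem1, a secreted BMP antagonist that fibroblasts make, was at least 16.8-fold higher (adjusted p = 0.000288). Bmp4, the ligand that extraembryonic ectoderm gives to the epiblast, was at 0.17 to 2.07 (median 0.47) against 0.86 and 0.52 and did not pass (0.06 ± 0.47, adjusted p = 0.93).

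Wnt target and feedback genes were called lower at 3 of 22 tested and higher at 1. Myc was at -0.37 to 1.27 (median 0.16) on EpiSC arrays against 2.33 and 2.49 in epiblast (-2.12 ± 0.32, adjusted p = 0.000981). Axin2, a feedback inhibitor that reports canonical Wnt activity, had a line mean of -1.87 in Wt1 and of -6.10 to -4.80 in the other 4 lines, against -1.10 and -2.0 in epiblast (-3.11 ± 0.93, adjusted p = 0.0252). The Axin2 call was lost on leaving out each E5.5 array in turn (adjusted p = 0.164 and 0.0771), and another probe gave -0.64. Its representative probe was well above background on 2 of 10 EpiSC arrays, so the size of the Axin2 fall is uncertain. Among ligands, receptors and secreted antagonists 5 of 24 tested were called higher and 2 lower. Wls, the carrier that brings Wnt proteins to the cell surface, was at 1.23 to 2.23 (median 1.59) against -0.34 and 0.21 (1.76 ± 0.26, adjusted p = 0.000912). The receptor Fzd10 was higher (1.75 ± 0.33, adjusted p = 0.00303), and Rspo1, which amplifies Wnt signals, was lower at -0.49 to 0.92 (median 0.10) against 2.72 and 2.28 (-2.36 ± 0.30, adjusted p = 0.000443). Without E5.5 replicate 1 only 2 of these components were called higher, and without line Wt1 the targets called lower were 7.

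Feedback genes of FGF and Erk signalling were called lower at 4 of 14 tested and higher at 1. Spry4, which restrains receptor tyrosine kinase signals, was at -5.77 to -2.18 (median -3.79) on EpiSC arrays against 0.02 and -0.56 in epiblast (-3.42 ± 0.55, adjusted p = 0.00142). Dusp4, an Erk phosphatase, was at -0.62 to 1.80 (median 0.05) against 3.26 and 2.98 (-2.89 ± 0.47, adjusted p = 0.00153). Spry1 and the Ets factor Etv5 differed by -1.31 ± 0.14 and -1.34 ± 0.26 (adjusted p = 0.000142 and 0.00335). Fgf4, the ligand made by pluripotent cells, was called at -1.67 ± 0.45 (adjusted p = 0.0169), and that call was lost on leaving out each E5.5 array in turn (adjusted p = 0.125 and 0.0605). In LIF and Stat3 signalling 4 of 11 tested genes were called higher and 2 lower. Stat3 was at 0.86 to 3.45 (median 2.38) against -0.19 and -0.01 and its feedback inhibitor Socs3 at 1.14 to 3.58 (median 1.87) against -0.29 and -0.41 (differences 2.44 ± 0.44 and 2.38 ± 0.38, adjusted p = 0.00251 and 0.00138). The LIF receptor gene Lifr and the kinase gene Pim1 were lower (-1.52 ± 0.39 and -2.06 ± 0.17, adjusted p = 0.0132 and 4.14e-05). The Lifr call was lost without E5.5 replicate 1 (adjusted p = 0.141), and 2 other Lifr probes gave -0.39 and -0.84.

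The lines did not lie on 1 side of the E5.5 epiblast for genes of the primitive streak and endoderm. Against the pooled 5 lines the definitive endoderm list had 2 of 13 tested genes called higher and 2 lower, and the streak and mesoderm list 4 of 21 higher and 1 lower. With each E5.5 array left out in turn the endoderm list had 1 called higher and 0 lower, and the streak list 1 higher. When only the 2 original-protocol lines were set against the E5.5 arrays, 9 endoderm genes were called higher and 1 lower, where 15.6% of all genes tested were higher and 12% lower. With only the 3 Wnt inhibitor lines, 9 were called lower and 2 higher, where 10.5% of all genes tested were lower and 16.2% higher. Streak and mesoderm genes were called higher at 10 and lower at 0 in the original-protocol lines, and higher at 4 and lower at 4 in the Wnt inhibitor lines. These comparisons share the E5.5 arrays.

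The genes below were called in a test between the kinds of line, Wnt inhibitor minus original-protocol, as were 722 of all 14746 genes (4.9%). Cer1, a secreted antagonist of Nodal, BMP and Wnt, had line means of -4.15 in 129Ba1, -4.64 in 129Ba2 and -4.85 in BNa17, and of 4.21 in Wt1 and 5.89 in 129C1, while the E5.5 arrays stood at -2.88 and 1.16. With the lines in that order, Foxa2, the pioneer factor of endoderm and node, had -3.75, -4.69 and -4.14 in Wnt inhibitor lines and 4.22 and 4.18 in original-protocol lines, around E5.5 values of -0.68 and 1.58. The organizer gene Gsc had -3.69, -3.72 and -3.71 in Wnt inhibitor lines and 3.02 and 3.5 in original-protocol lines, with -0.91 and -0.24 in E5.5 epiblast. Epiblast thus lay between the kinds of line for all 3 genes. All 3 met a naming rule that asks for line means on both sides of both E5.5 arrays, so this position follows from the choice. The rule also took the largest spreads over the line means, so it favours genes called between the kinds of line. Against E5.5, the differences over the 5 lines together were 0.15 ± 3.01, -1.28 ± 2.55 and -0.34 ± 2.08, and none passed (adjusted p = 0.972, 0.714 and 0.909). In the Wnt inhibitor lines no array was well above background for Cer1, which was at least 373-fold lower there than in original-protocol lines (adjusted p = 0.00219). The log2 differences of Wnt inhibitor minus original-protocol lines were -8.39 for Foxa2 and -6.96 for Gsc (adjusted p = 0.000242 and 6.19e-06), where 1 and 2 of the 6 Wnt inhibitor arrays rose well above background.

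The endoderm factors Sox17, Gata6 and Hhex, which met the same naming rule, gave a like picture in the plot of streak and endoderm genes by array. None passed against E5.5 (0.29 ± 1.92, 0.15 ± 1.88 and -0.63 ± 1.88), and their line means ran from -5.56 to 1.39, from -4.95 to 1.85 and from -4.60 to 2.49. These 3 genes, like Cer1, are also made by visceral endoderm, and each was higher in E5.5 replicate 2 than in replicate 1. Foxa2, Gsc and Dkk1 were higher in replicate 2 too, the replicate with the higher visceral endoderm sum. The part of visceral endoderm RNA in the E5.5 levels of all these genes was not tested. T (brachyury), the streak gene, had -3.71, -4.95 and -4.36 in Wnt inhibitor lines and 2.68 and -0.34 in original-protocol lines, against -3.13 and -3.62 in E5.5 epiblast. At E6.5, when the streak forms, T stood at 2.95 and 3.06. The Wnt feedback genes Dkk1 and Sp5 and the ligand Wnt8a were likewise highest in Wt1, at 2.45, 2.98 and 2.22, and the E5.5 arrays stood at -3.98 and -1.21, -1.99 and -0.48 and -2.36 and -4.62. Eomes, a T-box factor of streak and endoderm from the fixed set of marker genes, was not chosen by that rule and differed in its position. The original-protocol lines, at 3.05 and 2.62, lay at the E5.5 level of 3.08 and 2.52, and the Wnt inhibitor lines lay below it at -0.59, -1.23 and -1.43.

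**Figure D4:**
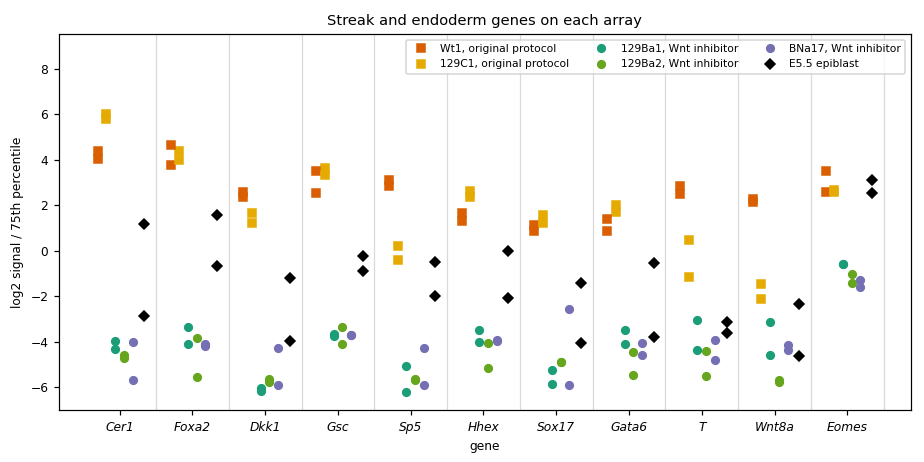
Levels of 11 streak and endoderm genes on each array (log2 signal over the array's 75th percentile), with original-protocol lines as squares, Wnt inhibitor lines as circles and E5.5 epiblast as diamonds. For Cer1, Foxa2, Gsc and Hhex, which met the naming rule of line means on both sides of E5.5, the E5.5 arrays lie between the kinds of line. For Eomes they lie with the original-protocol lines.

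A few lineage genes were called over the lines together. Evx1, a homeobox gene of the posterior streak, had line means of -0.81 in Wt1 and of -6.12 to -5.00 in the other lines, against 0.20 and -0.42 in epiblast (-4.5 ± 1.20, adjusted p = 0.0159). The Evx1 call was lost on leaving out each E5.5 array in turn (adjusted p = 0.105 and 0.0708). Trh, a neuropeptide gene active in early endoderm, was at 5.71 to 8.24 (median 6.85) on EpiSC arrays against 4.25 and 2.97 in epiblast, above it on every array (3.36 ± 0.52, adjusted p = 0.00114). Of 22 tested neural ectoderm genes 5 were called higher and 0 lower (median 1.49). Fabp7, the fatty acid binding protein of neural progenitors, was at -1.55 to 3.11 (median 1.99) against -3.65 and -5.28 and at least 32-fold higher (adjusted p = 0.00117). Irx3 was at -0.07 to 3.26 (median 0.63) against -2.60 and -3.11 (3.80 ± 0.66, adjusted p = 0.00214). Sox1, the earliest neural Sox gene, was called at 2.76 ± 0.76 (adjusted p = 0.0188), but another probe gave -0.24 and the call was lost on leaving out each E5.5 array in turn (adjusted p = 0.0948 and 0.0996). 129C1 had the lowest line mean of Fabp7 (-1.20) and of Sox1 (-1.69). With only the Wnt inhibitor lines 12 neural genes were called higher, and with only the original-protocol lines 3. Over all genes tested the shares called higher were 16.2% and 15.6%. These counts rest on 3 and 2 line means and are not a test between the kinds of line. Over the lines together the count of 5 was 12 without line 129C1, 3 without BNa17, 2 without E5.5 replicate 1 and 3 without replicate 2.

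Hox genes, which pattern the body axis and are silent in early epiblast, were called higher at 10 of 23 tested members of the Hox and Cdx list, with 1 called lower (median 2.15). Hoxc6 was at -1.26 to 1.03 (median -0.50) on EpiSC arrays against -4.31 and -5.73 in epiblast and at least 9.71-fold higher (adjusted p = 0.000406). 129C1 was the lowest line for Hoxb2 (-3.76) and Hoxb4 (-4.65), while the other lines ran from -0.67 to 1.37 and from -1.57 to 1.20. The ranges of lines and tissue overlapped for Hoxb2 and Hoxb4. The count of 10 was 4 without E5.5 replicate 1 and 5 without replicate 2, and the calls of Hoxb4 (adjusted p = 0.193 and 0.085) and Hoxb2 (adjusted p = 0.149 without replicate 1) were lost. Hoxb4 was also lost without 129Ba1 or 129Ba2 (adjusted p = 0.0535 and 0.0551). Fibroblasts also express Hox genes, and the part of feeder RNA in these levels was not tested.

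Most mesenchymal genes and many matrix genes were higher in the lines. Of 22 tested genes of the mesenchymal transition 20 were called higher and 0 lower (median 3.41), and of 17 collagen genes 11 were higher and 0 lower (median 3.59). S100a6, a calcium-binding protein of mesenchymal and proliferating cells, was at 6.51 to 8.81 (median 7.49) on EpiSC arrays against -0.10 and -0.09 in epiblast (7.64 ± 0.36, adjusted p = 1.73e-06). Anxa1, a phospholipid-binding protein, and S100a4, a fibroblast marker in many tissues, differed by 8.70 ± 0.73 and 7.98 ± 0.48 (adjusted p = 4.52e-05 and 7.23e-06). Col1a1, a chain of type I collagen, was at 3.85 to 5.97 (median 4.65) against -2.55 and -0.78 (6.37 ± 0.61, adjusted p = 9.71e-05). Col6a1 was at least 104.9-fold higher and the laminin chain gene Lama4 at least 16.7-fold higher (adjusted p = 3.81e-05 and 9.28e-05). On every EpiSC array these genes were above both E5.5 arrays.

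Other large bounds were of genes that fibroblasts secrete or display. Mmp3, a matrix metalloproteinase, was at 2.95 to 6.66 (median 4.88) against -5.63 and -5.40 and at least 346-fold higher (adjusted p = 3.76e-05). Ly6a (Sca-1) was at least 223-fold, Mgp, an inhibitor of calcification, at least 191-fold, and the chemokine genes Ccl2 and Ccl7 at least 144-fold and 109-fold higher (adjusted p = 2.04e-05, 2.8e-05, 0.00027 and 2.55e-05). The smooth muscle genes Acta2 and Tagln, also on the fibroblast list, differed by 6.75 ± 0.50 and 5.66 ± 0.52 (adjusted p = 2.31e-05 and 7.01e-05).

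Fibroblast markers were higher in the same arrays. Of 19 markers 18 were called higher, and their median difference was 5.42. All 19 were well above background on some EpiSC array, 17 to 19 on each, against 9 and 10 on the E5.5 arrays. Their summed level, in units of the array's 75th percentile, was 581 and 502 in 129Ba1, 604 and 330 in BNa17, 373 and 259 in 129Ba2, 246 and 332 in Wt1 and 196 and 237 in 129C1. 129Ba1 also had the highest line mean, and 129C1 the lowest, of S100a6 (8.58 and 7.01) and of Col3a1 (5.48 and 2.33). Col3a1 is itself among the summed markers, so its order over the lines is not independent of the sum. In the 6 arrays of mouse embryonic stem cells of the same series, which were also grown on feeders, the sum was 79.9 to 179. Without the genes shared with the fibroblast list, 17 of 18 mesenchymal and 7 of 13 collagen genes were called higher. The part of feeder RNA in these differences was not tested.

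**Figure D5:**
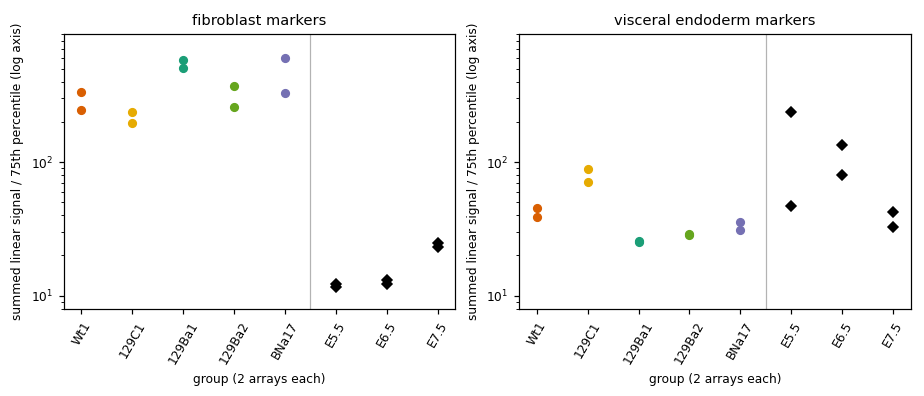
Summed linear signal (in units of the array's 75th percentile, log axis) of 19 fibroblast markers (left) and 23 visceral endoderm markers (right) on each array, by group. Fibroblast sums are 196 to 604 on EpiSC arrays and 12.3 and 11.6 at E5.5, and the 2 E5.5 arrays differ in visceral endoderm (47.0 and 236).

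Of 25 epithelial genes tested 3 were called higher and 2 lower, against 14.7% and 9.39% of all genes. Cdh1 (E-cadherin) was at 0.88 to 4.08 (median 3.68) on EpiSC arrays against 5.05 and 4.95 in epiblast and did not pass (-1.79 ± 0.68, adjusted p = 0.0634), with Wt1 the lowest line at 1.05. Epcam was called lower (-1.34 ± 0.38, adjusted p = 0.0198), though not without E5.5 replicate 2 (adjusted p = 0.172). Without replicate 1, 0 members were called higher, and without line Wt1, 4 were called lower.

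Some genes of growth arrest were higher in the lines. Of 25 tested p53 targets and Cdk inhibitors 8 were called higher and 1 lower. Cdkn2a, which encodes p16Ink4a and p19Arf and is known to be induced by culture, was at 2.35 to 4.65 (median 3.70) on EpiSC arrays against -1.34 and -1.59 in epiblast (5.03 ± 0.42, adjusted p = 4.52e-05). Its neighbour Cdkn2b was at 0.22 to 3.14 (median 1.46) against -3.39 and -3.78 (5.11 ± 0.52, adjusted p = 0.000135). Cdkn1a (p21) and the apoptosis gene Perp were higher too (3.16 ± 0.53 and 3.35 ± 0.33, adjusted p = 0.0018 and 9.82e-05), and the death receptor gene Fas was at least 11.46-fold higher (adjusted p = 2.3e-05). Like the fibroblast sum, Cdkn2a had its highest line mean in 129Ba1 (4.54) and its lowest in 129C1 (2.92), and fibroblasts in culture express it. That part was not tested. Among 37 cell cycle and replication genes 1 was called higher, cyclin D2 (Ccnd2, 3.54 ± 0.43, adjusted p = 0.000348), and 4 lower. Aurkb, the kinase of the chromosomal passenger complex, had the largest fall of these on its probe, at -5.96 to -4.04 (median -5.67) against -1.64 and -1.76 (at least 3.56-fold, adjusted p = 1.29e-05). Over the whole list of 37 the median difference was -0.47, and 8 genes lay above 0. At an unadjusted limma p below 0.05, 5 of the list were higher and 21 lower. Of all 14746 genes tested, 7182 reached that p in either direction.

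Markers of visceral endoderm, the layer that encloses the epiblast, were lower in the lines. Of 21 tested markers 13 were called lower in EpiSC lines and 0 higher, with a median of -3.65. Ttr (transthyretin) was well above background on no EpiSC array and stood at 0.12 and 3.44 on the E5.5 arrays. It was at least 39.7-fold lower (adjusted p = 0.000142). Afp was at -5.77 to -4.21 (median -5.48) against -1.92 and 2.66 (at least 14.9-fold lower, adjusted p = 0.00179), and Cubn, Apob and Trf were lower too (-6.72 ± 0.74, -5.49 ± 0.99 and -3.45 ± 0.57, adjusted p = 0.000207, 0.00252 and 0.00164). Each was higher in E5.5 replicate 2 than in replicate 1, with Cubn at 0.80 and 4.28. The representative probes of Cubn and Apob were well above background on 3 and 2 of the 10 EpiSC arrays. Apom, a visceral endoderm marker among the largest bounds, stood at 0.11 and 3.595 on the E5.5 arrays and was at least 40.6-fold lower (adjusted p = 0.000312). Without replicate 2 the count was 8, with differences of -3.44 for Apob and -2.21 for Trf and bounds of 3.04-fold for Afp, 12.1-fold for Apom and 12.6-fold for Ttr. Without replicate 1 those bounds were 72.9-fold, 136-fold and 126-fold. On the EpiSC arrays 6 to 16 of the 23 markers were well above background, and the sum was 25.4 to 88.6, highest in 129C1, against 47.0 and 236 on the E5.5 arrays. The part of visceral endoderm RNA in these differences was not tested. Elf5, which marks extraembryonic ectoderm, was well above background on 1 E5.5 array and no EpiSC array, and 3 of 18 tested markers of that tissue were called lower and 0 higher.

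Sex-linked genes differed among the lines. Xist, expressed from the inactive X of female cells, stood at 0.27 in Wt1, 0.41 in 129C1 and -1.13 in 129Ba2, and at -5.68 in 129Ba1 and -5.01 in BNa17. The Y-linked genes Ddx3y and Eif2s3y showed the opposite order, with Eif2s3y at 2.74 in 129Ba1 and 3.12 in BNa17 and at -5.53 to -4.37 in the other lines. Both E5.5 arrays carried Eif2s3y (3.39 and 2.61) and Ddx3y (1.58 and 0.64), and Xist stood at -5.79 and -0.54. None of the 3 genes passed between lines and epiblast (adjusted p = 0.718, 0.196 and 0.136). The labels give no sex. X-linked genes named above, such as Rhox5 and the Fthl17 genes, were low in lines of both patterns. The part of sex in their differences from E5.5 was not tested.

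None of 59 respiratory chain genes and none of 75 ribosomal protein genes was called, with medians of 0.10 and -0.11 and ranges of -0.62 to 0.92 and -0.96 to 0.49. At an unadjusted limma p below 0.05, 6 respiratory chain genes were higher and 2 lower, and 1 ribosomal protein gene was higher and 8 were lower. Of 37 genes of glycolysis and the hypoxia response 11 were called higher and 1 lower (median -0.10), and 7 were called higher without E5.5 replicate 2. The 11 included the angiogenic factor Vegfa, at 1.32 to 2.39 (median 1.76) on EpiSC arrays against -1.23 and -0.55 in epiblast (2.66 ± 0.28, adjusted p = 0.000172). Adrenomedullin (Adm) and the mTOR inhibitor Ddit4 were higher by 2.93 ± 0.34 and 3.22 ± 0.51 (adjusted p = 0.000254 and 0.00125), and the carbonic anhydrase Car9 was at least 6.98-fold higher (adjusted p = 0.000503). The glycolytic genes themselves went both ways. Every EpiSC array lay below both E5.5 arrays for Ldha, Pgk1, Eno1, Pgam1 and Hk2, and above both for Hk1, Pfkm and Eno2. At an unadjusted limma p below 0.05, 13 genes of the glycolysis and hypoxia list were higher and 8 lower. The amino acid response driven by Atf4 had 11 of 28 tested genes called higher and 0 lower, a count that was 3 without E5.5 replicate 2. In it Chac1, which degrades glutathione, was at 1.17 to 6.76 (median 4.61) against 1.09 and -0.48 (3.95 ± 1.04, adjusted p = 0.0153, lost at 0.135 without E5.5 replicate 2), and the stress factor Nupr1 differed by 3.78 ± 0.95 (adjusted p = 0.0125, lost at 0.104 without E5.5 replicate 2). The zinc importer Slc39a8 was at 2.29 to 4.43 (median 4.03) against -1.83 and 0.37 (4.5 ± 0.62, adjusted p = 0.000635), and the zinc exporter Slc30a1 was at -1.82 to 0.21 (median -1.10) against 1.17 and 1.00 (-1.97 ± 0.38, adjusted p = 0.00375). In cholesterol synthesis 5 of 34 genes were called higher and 1 lower, against 14.7% and 9.39% of all genes. The 5 included Msmo1 (1.43 ± 0.24, adjusted p = 0.00192). Without E5.5 replicate 1, 3 were called higher.

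Of 29 imprinted genes tested, whose parental copies are expressed unequally, 6 were called higher and 2 lower, against 14.7% and 9.39% of all genes. Sgce and Grb10 were at 1.14 to 1.95 (median 1.38) and 3.14 to 4.28 (median 3.37) on EpiSC arrays against -2.21 and -0.83 and 1.16 and 1.47 in epiblast (2.94 ± 0.33 and 2.16 ± 0.27, adjusted p = 0.000223 and 0.000424). Magel2 was at -0.86 to 0.78 (median -0.24) against 2.00 and 1.53 (-1.88 ± 0.32, adjusted p = 0.002). The largest falls among genes measured on all 12 arrays, besides those given above, included the ubiquitin ligase gene Trim25 at -0.22 to 3.05 (median 1.51) against 5.42 and 5.59 (-4.15 ± 0.66, adjusted p = 0.00134) and Enpp2, which makes lysophosphatidic acid, at -0.60 to 0.21 (median -0.28) against 3.74 and 3.68 (-3.90 ± 0.22, adjusted p = 4.31e-06). Apoc1 and the inflammasome adaptor Pycard were lower as well (-3.82 ± 0.46 and -3.70 ± 0.29, adjusted p = 0.000301 and 3.19e-05). For these 4 genes every EpiSC array lay below both E5.5 arrays.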

How the data were processed

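RNA of 24 samples was measured on 1-colour Agilent mouse arrays, 1 array each. The spot intensities were deposited as Feature Extraction 10.5.1.1 output (version per the submitters' processing notes and the file headers), in which the authors' scanner software had subtracted background and trended signal within each array, with no scaling between arrays. The authors' deposited log2 values of the same arrays, whose scaling is stated nowhere in the sources used here, correlated with each array's own scaled intensity at 0.99999 or higher and served as an alternative.

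The processed signal of each probe was divided by the array's 75th percentile over distinct probes and taken as log2. Control spots and 168 probes with an outlier flag on any array were left out. Of 55681 probes 27229 were matched to a RefSeq gene. The probe with the highest mean stood for its gene, and a gene was tested where some group had it well above background on both its arrays (14746). Arrays of a line were averaged. limma 3.58.1 in R 4.3.3 was fitted to 5 line means and 6 embryo arrays as 4 groups, and a second fit split the lines by how they were established. In simulated data on the 14746 genes, 86% of 100 genes changed by 3 on the log2 scale and 68% of 100 changed by 1.5 were called. There were 0 wrong signs, but 118 unchanged genes were called, more than the called genes of either changed set. The share of unchanged genes among the simulated calls was thus well above the limit set on adjusted p. The adjusted p values given here may therefore understate the share of false calls.

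The members and gene lists were chosen with earlier results of these data known. The genes named were the largest differences among called genes measured on all 12 arrays, the largest bounds, up to 6 called members of each list, a fixed set of marker genes and the list members most split over the lines. The last were taken only from members with line means both above and below both E5.5 arrays. Outside these rules, and after their values were seen, Sycp1 and Slc25a31 were named for their promoters, and Kit, Bmp4, Ddx3y, Eif2s3y, Hsph1 and Lama3 as context. The number of arrays limits the precision. Replicate numbers do not pair line and tissue arrays (correlations of replicate differences with those of E5.5 from -0.0723 to 0.0307). Slide as a fixed block could not be fitted. Settings tried in all came to 33.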

Additional observations from a re-analysis of the deposited data

Results flagged for a closer look

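Line means of EpiSC lines were compared with each other for 142 named genes. In 7 of them 1 line stood apart from the other 4 by Dixon's test (critical value 0.71 for 5 values), which chance gives for about 1 in 20 groups. Wt1 was the line apart for 5 of the 7. It was high for Fzd10 (2.19) and Evx1 (-0.81), and low for Cdh1 (1.05). Its level was 1.11 for Pycard and 1.97 for Bmp4. BNa17 stood apart for Apom (-4.96), with no EpiSC array well above background, and 129C1 for Grb10 (4.22).

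A test of Wnt inhibitor lines minus original-protocol lines (limma, adjusted over all genes tested) was called for 19 named genes. Over all genes tested it was called for 722 of 14746 (4.9%). Dkk1, Sp5, Gsc, Hhex, Gata6 and Wnt8a were named only for their spread over these line means, so their calls follow in part from that choice. Cer1, Foxa2, Sox17 and T met that rule too, but were also in the fixed set of marker genes. For 4 genes no Wnt inhibitor array was well above background, and these were lower there by at least 373-fold (Cer1), 43.4-fold (Dkk1), 30.7-fold (Sp5) and 25.7-fold (Sox17). Lower in the Wnt inhibitor lines on the log2 scale were Foxa2 (-8.39), Gsc (-6.96), Hhex (-6.08), Gata6 (-5.84), T (-5.51) and Wnt8a (-4.83), each well above background on 1 or 2 of the 6 arrays of these lines, and Eomes (-3.92). The genes Dusp4 (-1.38), Kit (-1.37), Id3 (-1.34) and Dnmt3l (-1.11) were lower there by smaller amounts. Chac1 (3.03), Tal1 (1.72), Pou3f1 (1.41) and Epcam (1.09) were higher in the Wnt inhibitor lines. The values with no fold are log2 differences between 3 and 2 line means. Tal1 was well above background on 1 of 4 original-protocol arrays.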

How the results depend on the processing

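The count of 3549 genes called (2164 higher, 1385 lower) was recomputed in 33 further settings, and in none was a gene called in the opposite direction to its call above. It was 1675 (1098 higher, 577 lower) with normexp background correction, 1928 (1267 and 661) with only genes above background on all 12 arrays, 5734 (2817 lower) with no minimum fold, and 2338 (800 lower) with line or stage as a random block. With no minimum fold 50.9% of calls were higher, against 61% above. Leaving out a line or an array gave 2624 (without E5.5 replicate 2) to 3656 calls. With arrays as replicates and the replicate number as a block the count was 3411 (3476 without the block), and with slide as a random block it was 3038. The E5.5 array left when 1 was dropped was assumed to vary like the other groups. Normexp was run on the median spot signal, the mean signal not being used here. That setting and the omission of shared fibroblast genes were chosen after seeing the data.

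Of 118 named genes called, 87 kept their call in each of the 33 settings that tested them, and 24 lost it without 1 or the other E5.5 array. Genes dim on 1 side were not tested where all 12 arrays had to be above background, so that setting says nothing of them. Against E5.5, Cer1 (-3.69, adjusted p = 0.0262) and Sox17 (-2.14, adjusted p = 0.0476) took the opposite sign with only Wnt inhibitor lines, none of whose arrays was well above background for them, so that the falls are bounded at 6.21-fold and 1.68-fold. With only original-protocol lines Dkk1 (4.54), Foxa2 (3.75), Gsc (3.84) and Hhex (3.02) did so. The lines themselves differ at these genes, as described above. The list of germline genes had 12 called lower with normexp and 3 when all 12 arrays had to be above background, which leaves out genes lost in the lines by construction. List counts of 3 or fewer shifted by 1 gene or more in some of the settings that leave out a line or array. The largest shift seen among Wnt targets called lower was from 3 to 7, without line Wt1. Signal near background limits the size of differences for genes dim on 1 side.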

Other observations

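Of 26 tested immediate early and stress genes 9 were called higher in EpiSC lines and 2 lower, a count that was 5 higher without E5.5 replicate 1. Atf3, a stress-induced transcription factor, had line means of -0.85 in Wt1, -0.77 in 129C1, 0.31 in 129Ba1, 1.58 in 129Ba2 and 1.01 in BNa17, against -5.61 and -3.09 in E5.5 epiblast, where neither array was well above background (at least 12.4-fold higher, adjusted p = 0.00415 by limma). The Atf3 call was lost without that replicate (adjusted p = 0.0581). The heat shock gene Hsph1 was lower (-1.27 ± 0.21, adjusted p = 0.00183). Integrin and laminin subunits were called higher at 11 of 23 tested and lower at 1. Lama3, a laminin chain of epithelial basement membrane, was the member called lower (-1.14 ± 0.21, adjusted p = 0.00275). Without E5.5 replicate 1, 7 were called higher, and without replicate 2 Lama3 was not called (-0.91, under 2-fold).

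Of 14 tested FGF ligands and receptors 3 were called higher and 2 lower. Neither E5.5 array was well above background for Fgf17 or the binding protein gene Fgfbp1, which were at least 2.43-fold and 4.87-fold higher, and the receptor gene Fgfr4 was lower (-2.0 ± 0.60, adjusted p = 0.00338, 0.0115 and 0.0267 by limma). The calls of Fgfbp1 (adjusted p = 0.0502 and 0.093 without each E5.5 replicate) and Fgfr4 (0.273 without replicate 2) were lost in those settings, where 1 of the list was higher without replicate 1 and 0 lower without replicate 2. In the oxidative stress and metal list 6 of 25 were called higher and 2 lower. Metallothionein Mt2 was at 4.26 to 7.08 (median 6.15) on EpiSC arrays against 8.15 and 7.83 in E5.5 epiblast (-2.01 ± 0.59, adjusted p = 0.0248), a call lost on leaving out each E5.5 array in turn (adjusted p = 0.14 and 0.0929). Of 16 tested haematoendothelial markers 4 were called lower and 1 higher. Tal1, a master factor of blood, was at -4.57 to -1.34 (median -3.05) on EpiSC arrays against -0.93 and -1.12 in E5.5 epiblast (-2.10 ± 0.61, adjusted p = 0.0225), a call also lost on leaving out each E5.5 array in turn (adjusted p = 0.122 and 0.0962). The list then had 1 called lower without replicate 1 and 2 without replicate 2.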
